A study of Mus musculus with 11 samples.

Results

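The collagen genes of mouse gastric corpus mucosa were described in 11 bulk RNA sequencing samples. Members were all genes of the deposited table whose symbol has the form Col plus a number, then the letter a and another number. Of 34866 genes in the table, 44 matched, and the 34 with at least 1 count per mega-count (CPM) in 2 or more samples are reported: 9 fibrillar collagens, 8 basement membrane collagens and 17 others. Just inside that limit were Col13a1, with 2 samples at 1 CPM or more, and Col7a1, with 4, and just outside it was Col24a1, with 1 sample at 1.11 CPM. The remaining genes not reported were Col2a1, Col6a6, Col9a1, Col10a1, Col17a1, Col19a1, Col22a1, Col25a1 and Col26a1.

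The study compared wild-type mice (controls, n = 2) with engineered lines made for ablating parietal cells, chief cells or both. DTR stands for the diphtheria toxin receptor, which makes mouse cells that carry it sensitive to diphtheria toxin. The ATP4B-DTR line (n = 3) is named for the proton pump subunit of acid-secreting parietal cells, the GIF-DTR line (n = 3) for intrinsic factor, which mouse chief cells secrete, and the GIF/ATP4B-DTR line (n = 3) for both. The dose and timing of toxin, whether the controls received it, the age and sex of the animals and whether a sample is 1 animal or a pool are not given in the sources used here, so p-values measure only the spread between these samples.

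Collagens are triple helices of 3 chains, each chain the product of its own gene. Fibrillar collagens assemble into the cables of connective tissue and are made mainly by fibroblasts and smooth muscle cells. Type IV collagens form the sheet-like network of basement membranes, which lie under epithelia and around vessels and muscle, and the remaining types link, anchor or decorate these structures. In the gastric corpus, the lamina propria between the glands is thin and holds fibroblasts, strands of smooth muscle, pericytes, capillaries and immune cells.

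Libraries held between 20.7 and 27.9 M counts, and 3 counts corresponded to between 0.107 and 0.166 CPM. The 44 matching collagens together held between 0.0118% and 0.121% of the counts of a sample. Control 1 stood apart from control 2. It was the lower of the pair in 32 of 34 collagens, and the median ratio of the higher to the lower control was 7.56 over the collagens, against 1.2 over 12724 genes with a mean of at least 1 CPM. The stromal marker sums moved with it: the 12 fibroblast markers summed to 22.6 and 153 CPM in controls 1 and 2, the 10 smooth muscle markers to 426 and 2460 CPM, and the 9 endothelial markers to 11.7 and 113 CPM, with none of these markers at 0 in all samples. In a bulk sample, fewer cells of a type and less RNA per cell cannot be told apart. Of the genes that name the lines, Atp4b was at 4784 and 4363 CPM in the controls and ranged from 158 to 683 CPM over the samples of ATP4B-DTR and GIF/ATP4B-DTR, and Gif was at 702 and 2302 CPM in the controls and ranged from 65.5 to 218 CPM where GIF is in the line's name. The Y-linked gene Ddx3y was between 40.8 and 53.2 CPM in the controls, ATP4B-DTR 1 and the 3 GIF/ATP4B-DTR samples, and at most 0.0793 CPM in the other samples.

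Most calls among the 34 collagens fell on Col4a3 and Col4a4, a pair of type IV chains whose levels were highest in the controls and lowest in the lines named for ATP4B. With edgeR's quasi-likelihood test and Benjamini-Hochberg adjustment over 14889 genes, 10 of 204 pairs of a collagen and a comparison passed an adjusted p of 0.05, which is 4.9% against 12.5% of such pairs over all genes, and 7 of the 10 were Col4a3 or Col4a4. The other 3 were Col6a5, Col11a2 and Col27a1, and 29 collagens passed in no comparison. The precision of the tests differed among members. The standard error of the log2 fold change against control had a median of 0.85 over the 34 collagens and was under 0.5 for 5 of them, so for most members a change of about 1 on the log2 scale was not detectable with these samples. For 22 of 34 collagens, at least 7 of the 9 line samples lay between the 2 controls, and for Col4a3, Col4a4, Col9a3 and Col11a2 no line sample did.

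**Figure D1:**
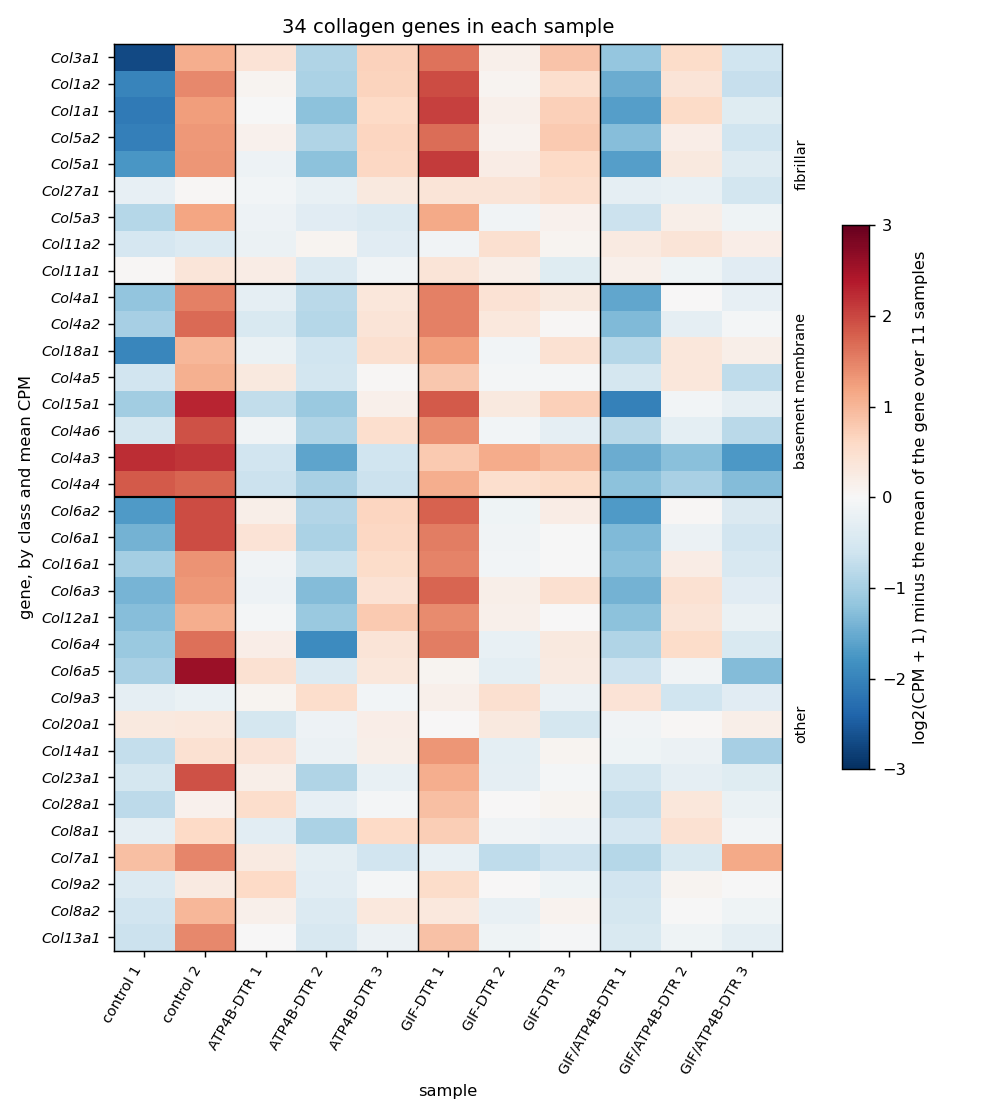
Level of each of the 34 collagen genes (rows, by class and mean CPM) in each of the 11 samples (columns), as log2(CPM + 1) minus the gene's mean over the samples. Most rows are low in control 1 and high in control 2 and GIF-DTR 1, whereas the Col4a3 and Col4a4 rows are high in both controls and low in every ATP4B-DTR and GIF/ATP4B-DTR sample.

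Per kilobase of exon, fibrillar collagens had the highest summed CPM of the classes in 10 of 11 samples. In control 1 they were the lowest class, at 4.47 CPM per kilobase. There the basement membrane collagens were at 9.14 and the other collagens at 5.06 CPM per kilobase. Col3a1, the chain of type III collagen, was at 11.4 and 171 CPM in controls 1 and 2, at 106, 42.2 and 131 CPM in ATP4B-DTR 1 to 3, at 248, 88.4 and 145 CPM in GIF-DTR 1 to 3, and at 35.4, 117 and 52.3 CPM in GIF/ATP4B-DTR 1 to 3. Control 1 was the lowest sample and GIF-DTR 1 the highest, and every genotype overlapped the span of the controls. The log2 fold changes against control were 0.03 ± 0.99 (SE) for ATP4B-DTR, 0.82 ± 1.01 for GIF-DTR and -0.42 ± 0.98 for GIF/ATP4B-DTR (edgeR, adjusted p = 0.986, 0.637 and 0.765).

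Col1a1, the chain present in 2 copies in each type I collagen helix, was at 7.0 and 82.8 CPM in the controls, at 33.9, 14.0 and 51.7 CPM in ATP4B-DTR, at 145, 38.3 and 56.8 CPM in GIF-DTR and at 10.2, 51.6 and 26.4 CPM in GIF/ATP4B-DTR. Its partner Col1a2 was at 10.8 and 126 CPM in the controls and ranged from 15.7 CPM in GIF/ATP4B-DTR 1 to 181 CPM in GIF-DTR 1. Both genes were low in control 1, ATP4B-DTR 2 and GIF/ATP4B-DTR 1 and high in control 2 and GIF-DTR 1, and all genotypes overlapped. The fold changes of Col1a1 against control were -0.43 ± 1.04, 0.84 ± 1.07 and -0.61 ± 1.04 (log2 ± SE, with the single lines before the double line, ATP4B-DTR before GIF-DTR), with edgeR adjusted p between 0.652 and 0.80. The ratio of Col1a1 to Col1a2, each as CPM per kilobase of exon, stayed between 1.13 and 1.78 over the 11 samples, and that of Col3a1 to Col1a1 between 1.09 and 2.31.

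The type V chains Col5a1 and Col5a2, which join type I collagen in mixed fibrils, followed a similar order of samples. Col5a1 ranged from 2.24 CPM in control 1 to 45.3 CPM in GIF-DTR 1, and Col5a2 from 2.06 CPM in control 1 to 39.7 CPM in GIF-DTR 1. The third type V chain, Col5a3, was lower, from 0.404 to 4.77 CPM, and Col11a1, a type XI chain, ranged from 0.351 to 1.37 CPM. None of these passed the edgeR test in any comparison.

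Col27a1 and Col11a2 had a smaller spread than the other fibrillar genes within the controls, GIF-DTR and GIF/ATP4B-DTR, while in ATP4B-DTR that of Col5a3 was smaller still. Col27a1, the chain of type XXVII collagen, was at 8.44 and 10.6 CPM in the controls, at 9.59, 8.64 and 12.8 CPM in ATP4B-DTR, at 13.7, 13.7 and 15.0 CPM in GIF-DTR and at 8.27, 8.72 and 6.69 CPM in GIF/ATP4B-DTR. All 3 GIF-DTR samples lay above every other sample. GIF/ATP4B-DTR was 1.79-fold lower than GIF-DTR (log2 fold change -0.84 ± 0.18, edgeR adjusted p = 0.0366), while GIF-DTR against control gave 0.57 ± 0.21 (adjusted p = 0.0821). The first call was lost, among other settings, when any 1 of the 6 samples of its groups was left out (adjusted p between 0.0564 and 0.153), and the counts of Col27a1 were fractional in 10 of 11 samples.

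Col11a2, a type XI chain best known from cartilage, was at 0.808 and 0.942 CPM in the controls, at 1.26, 1.71 and 1.04 CPM in ATP4B-DTR, at 1.37, 2.60 and 1.71 CPM in GIF-DTR and at 2.10, 2.35 and 1.96 CPM in GIF/ATP4B-DTR. All 9 line samples lay above both controls. GIF/ATP4B-DTR was 2.43-fold higher than control (log2 fold change 1.28 ± 0.43, edgeR adjusted p = 0.0391), and the 2 single lines gave 0.61 ± 0.43 and 1.11 ± 0.43 (adjusted p = 0.344 and 0.101). The call was lost under 11 of 22 alternatives, and without control 1 or without control 2 it had an adjusted p of 0.139 and 0.114.

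**Figure D2:**
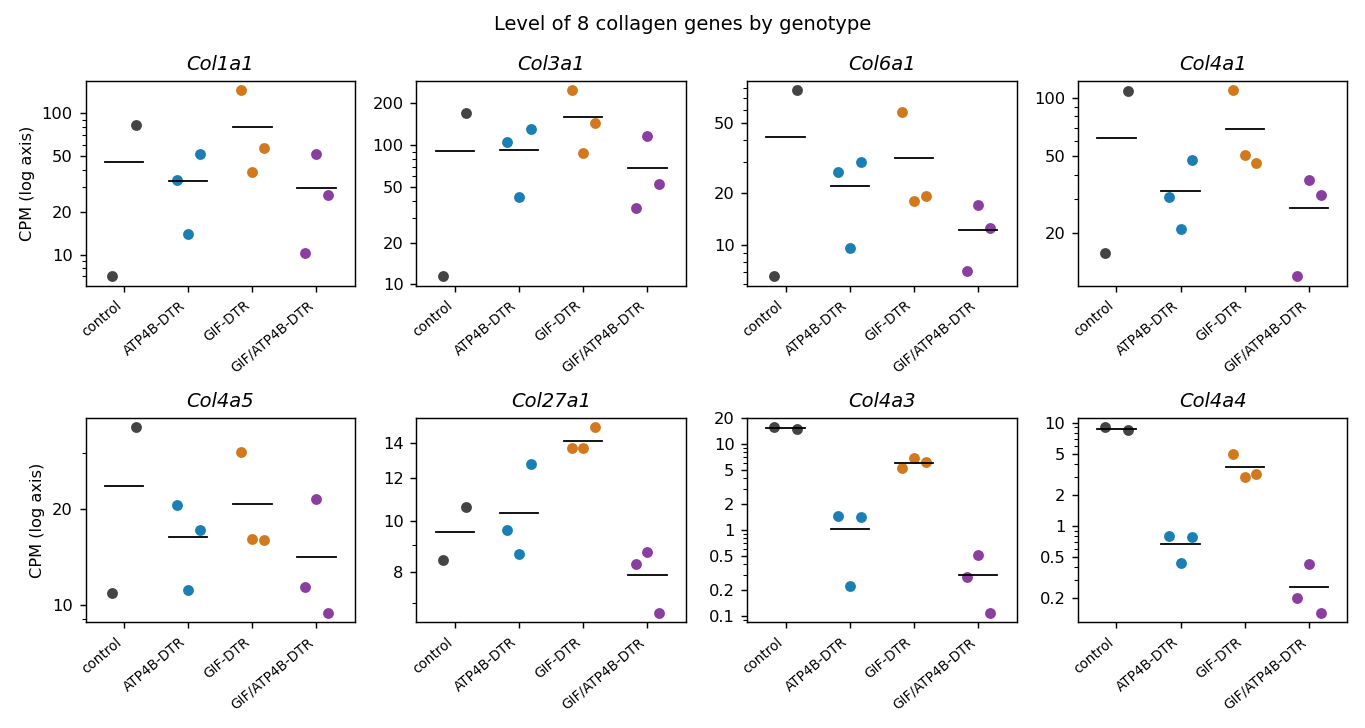
CPM (log axis) of 8 collagen genes in each sample, grouped by genotype, with the mean of the genotype as a bar. The controls span 7.0 to 82.8 CPM for Col1a1, whereas for Col4a3 they lie at 15.0 and 15.7 CPM, above every line sample.

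Basement membrane collagens included the members with the largest fold changes that passed the test. Col4a1 and Col4a2 encode the chains of the type IV network found in nearly all basement membranes. Col4a1 was at 15.9 and 108 CPM in the controls, at 30.7, 21.1 and 47.7 CPM in ATP4B-DTR, at 109, 50.7 and 46.1 CPM in GIF-DTR and at 12.0, 37.5 and 31.4 CPM in GIF/ATP4B-DTR. Col4a2 was at 11.3 and 79.2 CPM in the controls and ranged from 8.87 CPM in GIF/ATP4B-DTR 1 to 69.1 CPM in GIF-DTR 1. The genotypes overlapped the controls for both, and every GIF/ATP4B-DTR sample lay below every GIF-DTR sample. Col4a1 gave log2 fold changes against control of -0.90 ± 0.78 for ATP4B-DTR, 0.15 ± 0.79 for GIF-DTR and -1.2 ± 0.78 for GIF/ATP4B-DTR, with edgeR adjusted p of 0.452, 0.927 and 0.266. Their ratio per kilobase stayed between 1.2 and 1.69.

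Col4a3 and Col4a4 encode chains that, with the Col4a5 chain, form a separate type IV network, best known from the filtering membrane of the kidney and impaired in Alport syndrome. Col4a3 was at 15.7 and 15.0 CPM in controls 1 and 2, at 1.44, 0.219 and 1.41 CPM in ATP4B-DTR 1 to 3, at 5.20, 6.80 and 6.11 CPM in GIF-DTR 1 to 3, and at 0.282, 0.513 and 0.107 CPM in GIF/ATP4B-DTR 1 to 3. The underlying counts were 350 and 271 for controls 1 and 2 but 7, 12 and 3 for the GIF/ATP4B-DTR samples, so the last sample was at the limit of 3 counts. The controls lay above all 3 GIF-DTR samples, and these above every sample of the lines named for ATP4B, whose own ranges overlapped.

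Col4a4 was at 9.07 and 8.48 CPM in the controls, at 0.791, 0.439 and 0.787 CPM in ATP4B-DTR, at 5.01, 2.99 and 3.21 CPM in GIF-DTR and at 0.202, 0.427 and 0.142 CPM in GIF/ATP4B-DTR. The controls lay above GIF-DTR, and GIF-DTR above both lines named for ATP4B. Between these lines the order was not resolved, since ATP4B-DTR 2 and GIF/ATP4B-DTR 2 had 10 counts each and, scaled by library totals, lay at 0.415 and 0.443 CPM. The controls, which differed widely for most collagens, were close for this pair, with a ratio of the higher to the lower of 1.07 for Col4a4.

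In ATP4B-DTR against control, Col4a3 fell by 3.90 ± 0.60 on the log2 scale, which is 14.9-fold lower, and Col4a4 fell by 3.70 ± 0.44, 13.0-fold lower (edgeR, adjusted p = 0.00174 and 0.000463). They were the 2 collagens of 34 called in this comparison, in which 21.6% of all 14889 genes were called, 12.2% higher and 9.39% lower. In GIF/ATP4B-DTR against control, 33.6% of all genes were called, 18.2% higher and 15.4% lower, against 1 and 3 of 34 collagens. There Col4a3 was 51.3-fold lower (log2 fold change -5.68 ± 0.67, adjusted p = 0.000185) and Col4a4 33.9-fold lower (-5.08 ± 0.48, adjusted p = 4.79e-05). Those 4 calls held in every alternative that kept the genes, including each sample left out, and the requirement of at least 10 counts in every sample removed both genes. The size was less firm: without GIF/ATP4B-DTR 2 the change of Col4a3 was -6.29 on the log2 scale in GIF/ATP4B-DTR against control.

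In GIF-DTR against control, 0 of 34 collagens were called by edgeR, against 16.8% of all genes (9.97% higher and 6.82% lower), and 5 collagens had an unadjusted p under 0.05, as did 4668 of all genes. Col4a4 gave -1.23 and Col4a3 -1.35 on the log2 scale, with adjusted p of 0.0614 and 0.121, and for both genes the 3 GIF-DTR samples lay below both controls. DESeq2 called 22.6% of all genes there and 2 collagens, Col4a4 and Col7a1, both lower. Both controls had Ddx3y and all 3 GIF-DTR samples lacked it, so in this comparison too the line and the Y-linked level cannot be told apart. With that level as a covariate, Col4a4 gave -0.93 and Col4a3 -0.67 (edgeR, adjusted p = 0.547 and 0.774), and 3.3% of all genes were called. The lines also differed from each other. GIF-DTR was 5.52-fold higher than ATP4B-DTR in Col4a4 (2.46 ± 0.41, edgeR adjusted p = 0.0297), the 1 collagen called where 0.49% of all genes were (0.403% higher and 0.0873% lower), and Col4a3 gave 2.56 ± 0.55 (adjusted p = 0.0932). The Col4a4 call was lost under 6 of 21 alternatives (adjusted p from 0.051 to 0.141), among them leaving out ATP4B-DTR 1 or 2 or GIF-DTR 1 or 3.

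GIF/ATP4B-DTR was 20.2-fold lower than GIF-DTR in Col4a3 (log2 fold change -4.33 ± 0.63) and 14.4-fold lower in Col4a4 (-3.85 ± 0.45), with edgeR adjusted p of 0.00411 and 0.000946. With Col27a1 these were the 3 collagens called in a comparison that called 2.53% of all genes, 0.336% higher and 2.19% lower. Without GIF/ATP4B-DTR 2 the change of Col4a3 was -4.94. With the level of Y-linked genes as a covariate the changes were -5.06 ± 1.03 and -4.18 ± 0.78, no smaller than before but with larger errors, and neither passed (adjusted p = 0.182 and 0.136): all 3 GIF-DTR samples lacked Ddx3y and all 3 GIF/ATP4B-DTR samples had it, so within this pair the line and the Y-linked level cannot be told apart. GIF/ATP4B-DTR against ATP4B-DTR called 0 collagens and 0% of all genes with edgeR. At an unadjusted p under 0.05 it had 2 collagens of 1554 genes, and DESeq2 called 0 collagens and 1.87% of all genes. The 3 comparisons against control share their 2 controls.

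**Figure D3:**
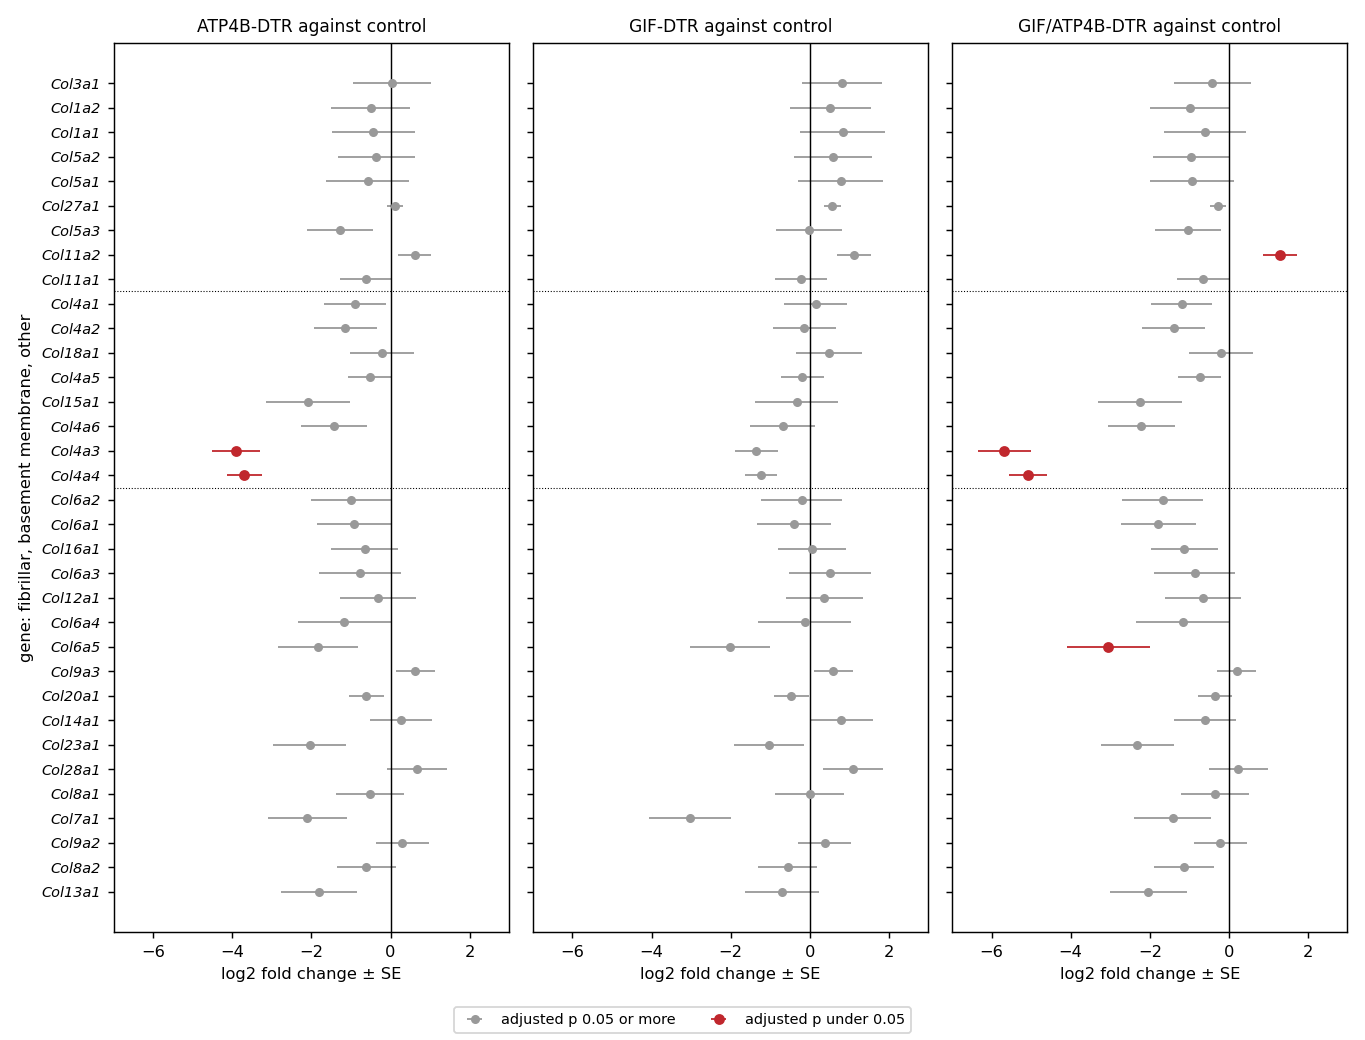
Log2 fold change against control with its standard error (edgeR) for each of the 34 collagens in the 3 lines, by class, with adjusted p under 0.05 in red. Col4a3 and Col4a4 lie furthest to the left in the panels of ATP4B-DTR and GIF/ATP4B-DTR, while many intervals of the other members reach zero.

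The parietal cell markers moved with this pair. The sum of the 6 listed markers was 16946 and 15935 CPM in the controls. It was 3076, 3087 and 4368 CPM for ATP4B-DTR, 9422, 7227 and 8490 CPM for GIF-DTR, and 1019, 2406 and 1513 CPM for GIF/ATP4B-DTR, with none of the markers at 0 in all samples. Over the 11 samples, as log2(CPM + 1), Col4a3 had a Pearson correlation of 0.98 with Col4a4, 0.94 with Atp4a and 0.97 with Slc26a7, a chloride and bicarbonate transporter of parietal cells, and of 0.23 with Col1a1. Col4a4 had 0.94 with Atp4a, 0.96 with Atp4b and 0.98 with Slc26a7. These correlations describe 11 samples that share genotypes, and the pair was chosen for them after its values were seen. Among genes that are not collagens and have a mean of at least 5 CPM, those most like Col4a3 were B4galnt2, Plxnb1, Pitpnc1, Gpam and Akap2, with correlations from 0.97 to 0.98. The part of parietal cell content in the fall of Col4a3 and Col4a4 was not tested.

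**Figure D4:**
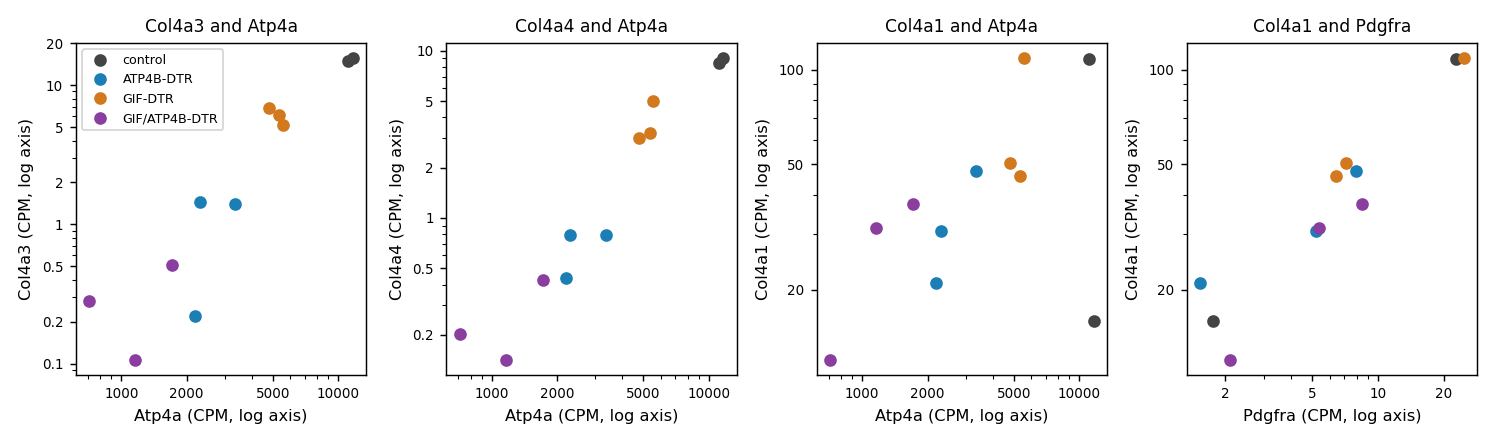
CPM of Col4a3, Col4a4 and Col4a1 against Atp4a, and of Col4a1 against the fibroblast marker Pdgfra, per sample (points, colored by genotype), on log axes. Col4a3 and Col4a4 are highest in the controls, where Atp4a is highest. Col4a1 differs between the controls, 15.9 and 108 CPM, at nearly the same Atp4a. The likeness of Col4a1 to Pdgfra was not measured.

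The 6 type IV genes lie in 3 head-to-head pairs, in which the genes are read away from each other from a shared start region (GENCODE M21 starts, mouse build GRCm38). Col4a4 starts on the minus strand of chromosome 1 at 82586849 and Col4a3 on the plus strand at 82586921, with 71 bases between the starts. Col4a1 and Col4a2 on chromosome 8 overlap by 22 bases, and Col4a6 and Col4a5 on the X chromosome lie 1308 bases apart. Because Col4a3 and Col4a4 moved together, the bases between them are shown beside the same length before the RefSeq start of Col4a5, their partner chain, which did not pass the test. Both come from the RefSeq promoter windows of build GRCm38.p6, which held 28 of the 34 members. Capitals mark the motif GGGCGG on either strand, the core of a site bound by Sp factors. RefSeq also lists a longer Col4a4 model that starts beyond the Col4a3 start, and the GENCODE start of Col4a5 lies within its window.
Col4a4 to Col4a3, chr1:82586850-82586920, minus strand: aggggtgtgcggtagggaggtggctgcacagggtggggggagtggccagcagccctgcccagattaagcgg
Col4a5, chrX:141475348-141475418, plus strand: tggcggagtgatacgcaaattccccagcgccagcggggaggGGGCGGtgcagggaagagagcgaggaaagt

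The Col4a4 to Col4a3 sequence had 69.0% G and C and the Col4a5 sequence 64.8%, against a median of 54.9% over 32851 windows of 71 bases before gene starts. GGGCGG was found in the Col4a5 window and in 20.7% of all windows. It was not found between Col4a4 and Col4a3. The letters CCAAT were found in 13.3% of windows and in neither of these sequences. The letters TATAAA were found in 4.41% of windows and in neither of them. All searches covered both strands.

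The head-to-head pairs Col4a3 with Col4a4 and Col4a1 with Col4a2 each had a Pearson correlation of 0.98 over the 11 samples, as log2(CPM + 1). Per kilobase of exon, the ratio of Col4a3 to Col4a4 ranged from 0.532 to 2.42, with the lowest value in ATP4B-DTR 2, where the genes had 5 and 10 counts, and the highest in GIF-DTR 2. The ratio of Col4a3 to Col4a1 was 0.738 and 0.104 in controls 1 and 2. It was between 0.00255 and 0.0352 in the lines named for ATP4B and between 0.0357 and 0.101 in GIF-DTR. This ratio was not tested, and the order of GIF-DTR rests on near-ties. GIF-DTR 2 was at 0.101 against 0.104 in control 2, and GIF-DTR 1 at 0.0357 against 0.0352 in ATP4B-DTR 1. Col4a3 shares 563 exonic bases with C430014B12Rik on the opposite strand, and the libraries were stranded per the labels' protocols, but whether the counting used strand is not given in the sources used here.

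Col4a5 was at 10.9 and 36.4 CPM in the controls, at 20.6, 11.1 and 17.2 CPM in ATP4B-DTR, at 30.3, 16.1 and 15.9 CPM in GIF-DTR and at 11.4, 21.6 and 9.40 CPM in GIF/ATP4B-DTR. Its genotypes overlapped, and it gave -0.53 ± 0.54, -0.18 ± 0.54 and -0.74 ± 0.54 against control (log2 ± SE, in the same order of lines, edgeR adjusted p between 0.315 and 0.863). Col4a6, its neighbor, ranged from 1.54 CPM in ATP4B-DTR 2 to 16.7 CPM in control 2, and in GIF/ATP4B-DTR against control gave -2.21 ± 0.85 (adjusted p = 0.069).

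Col15a1 and Col18a1 encode collagens of the basement membrane zone whose ends are cleaved into the fragments restin and endostatin. Col15a1 was at 2.74 and 36.7 CPM in the controls, at 3.63, 2.59 and 7.54 CPM in ATP4B-DTR, at 26.8, 8.45 and 11.7 CPM in GIF-DTR and at 0.887, 6.24 and 5.38 CPM in GIF/ATP4B-DTR. All 3 GIF-DTR samples lay above those of both other lines, but the edgeR test of neither difference passed (adjusted p = 0.626 against ATP4B-DTR and 0.34 for GIF/ATP4B-DTR against GIF-DTR). Col18a1 ranged from 3.73 CPM in control 1 to 42.0 CPM in GIF-DTR 1 and passed in no comparison.

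Among the 17 other collagens, Col6a5 alone passed the test, once. Type VI collagens form beaded filaments near cells. Col6a1 was at 6.60 and 77.4 CPM in the controls, at 26.1, 9.56 and 30.1 CPM in ATP4B-DTR, at 57.9, 17.9 and 19.1 CPM in GIF-DTR and at 7.10, 16.9 and 12.5 CPM in GIF/ATP4B-DTR. Col6a2 ranged from 5.43 CPM in control 1 to 80.7 CPM in control 2. All 9 line samples lay between the 2 controls for both genes, and the ratio of Col6a1 to Col6a2 per kilobase ranged from 1.55 to 2.46.

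Col6a5 was at 0.673 and 18.4 CPM in the controls, at 3.44, 1.45 and 3.11 CPM in ATP4B-DTR, at 2.46, 1.65 and 2.93 CPM in GIF-DTR and at 1.13, 2.01 and 0.320 CPM in GIF/ATP4B-DTR. Control 2 was the one high sample, and GIF/ATP4B-DTR overlapped the controls. The log2 fold change of -3.05 ± 1.05 passed at an edgeR adjusted p of 0.0482, but became 0.76 without control 2 and lost the call under 16 of 21 alternatives, that one included.

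Col7a1 encodes the anchoring fibril collagen that ties epithelial basement membranes to the stroma. It was at 2.87 and 4.77 CPM in the controls, at 1.54, 0.702 and 0.414 CPM in ATP4B-DTR, at 0.804, 0.236 and 0.357 CPM in GIF-DTR and at 0.161, 0.513 and 3.56 CPM in GIF/ATP4B-DTR. The ATP4B-DTR and GIF-DTR samples lay below both controls, and GIF/ATP4B-DTR 3 lay between them. GIF-DTR against control gave a log2 fold change of -3.04 ± 1.04 with an edgeR adjusted p of 0.0684. Of the remaining members, the fibril-associated Col12a1, Col14a1 and Col16a1 ranged from 0.392 to 20.7 CPM and were highest in GIF-DTR 1. The type VI chains Col6a3 and Col6a4 ranged from 0.307 to 21.1 CPM, and the network chains Col8a1 and Col8a2 from 0.219 to 3.16 CPM. The transmembrane collagens Col13a1 and Col23a1 ranged from 0.180 to 8.59 CPM, both highest in control 2, and Col9a2 and Col28a1 from 0.404 to 3.55 CPM. Col9a3 was between 1.15 and 3.69 CPM and Col20a1 between 1.19 and 2.94 CPM, without the low control 1 of most members.

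The ranges of a line and the controls did not overlap for 6 of 34 collagens in ATP4B-DTR, where this held for 48.5% of all genes tested, for 6 in GIF-DTR (48% of all genes) and for 4 in GIF/ATP4B-DTR (56.3%). The 6 in ATP4B-DTR were Col4a3, Col4a4, Col7a1 and Col20a1, all lower, and Col9a3 and Col11a2, both higher. Between lines it held for 5 collagens in GIF-DTR against ATP4B-DTR (16.9% of all genes), 8 in GIF/ATP4B-DTR against GIF-DTR (26.4%) and 2 in GIF/ATP4B-DTR against ATP4B-DTR (15.1%), Col11a2 and, with TMM scaling but not with library totals, Col4a4. The 8 included Col4a1, Col4a2, Col4a6, Col6a1 and Col15a1 beside the called genes, all lower in GIF/ATP4B-DTR.

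The median log2 fold change of the collagens depended on which control was used. Against both, it was -0.62 for ATP4B-DTR, -0.01 for GIF-DTR and -0.97 for GIF/ATP4B-DTR, where the medians over all genes tested were -0.02, -0.01 and -0.04. Without control 1 the same medians were -1.46, -0.60 and -1.84, and without control 2 they were 1.33, 2.04 and 0.78. Scaling by library totals moved the medians of all genes to 0.30, 0.35 and 0.28 and those of the collagens to -0.31, 0.29 and -0.70. Collagen transcripts are long, with a median exon length of 7243 bases against 4309 over all genes with a length. Across 14859 genes, which are not independent replicates, the fold change against control had a Spearman rho with exon length of -0.23, -0.25 and -0.23, and with an offset that removed this trend the collagen medians were -0.57, 0.12 and -0.70. Without control 1, 11 collagens were called lower in GIF/ATP4B-DTR and 5 in ATP4B-DTR, where 28.3% and 13.8% of all genes were called in either direction. Between lines, with no control involved, the median was 0.73 in GIF-DTR against ATP4B-DTR, -1.21 in GIF/ATP4B-DTR against GIF-DTR and -0.35 in GIF/ATP4B-DTR against ATP4B-DTR, where all genes had 0.01, 0.01 and 0.00. These medians also rested on single samples. Without GIF-DTR 1 the first 2 were 0.20 and -0.53, and with each sample left out in turn the last ranged from -0.77 without GIF/ATP4B-DTR 2 to -0.10 without GIF/ATP4B-DTR 1 or ATP4B-DTR 3. With the mean fibroblast marker level as a covariate, the first 2 turned sign to -0.39 and 0.33, and the medians against control of ATP4B-DTR and GIF/ATP4B-DTR turned to 0.29 and 0.24. Against control, the median of GIF-DTR was -0.58 without GIF-DTR 1 and 0.26 without GIF-DTR 2, and that of ATP4B-DTR was -1.14 without ATP4B-DTR 3 and -0.34 without ATP4B-DTR 2.

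Within genotypes, the same samples were high or low for most collagens. Within a genotype of 3, GIF-DTR 1 was the highest sample for 28 of 34 collagens, GIF/ATP4B-DTR 2 for 28, and ATP4B-DTR 2 the lowest for 29. The median ratio of the highest to the lowest sample was 2.98 for ATP4B-DTR, 3.06 for GIF-DTR and 3.17 for GIF/ATP4B-DTR, against 1.32, 1.28 and 1.33 over genes with a mean of at least 1 CPM. Among other genes, those most like Col1a1 over the 11 samples were Sparc, Mgp, Eln, Fstl1 and Wnt5a (Pearson r of log2(CPM + 1) from 0.97 to 0.99), and those most like Col4a1 were Tgfbi, Cygb, Fbn1, Axl and Nid1 (0.97 to 0.99). Of the 33 other collagens, 12 had an r over 0.9 with Col1a1, and 12 with Col4a1, led by Col5a1 and Col1a2 for the former and by Col4a2 and Col15a1 for the latter.

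The fibroblast markers followed a similar order of samples, with sums of 44.0, 26.5 and 63.7 CPM for ATP4B-DTR, 145, 56.3 and 60.6 CPM for GIF-DTR, and 22.6, 50.9 and 30.6 CPM for GIF/ATP4B-DTR. Of 11 markers tested, none passed in ATP4B-DTR or GIF-DTR against control, and Cd34 fell in GIF/ATP4B-DTR. The summed fibrillar collagens were 1.95 and 2.96 times the summed fibroblast markers in the controls, 5.07, 3.80 and 4.80 times in ATP4B-DTR, 4.70, 3.87 and 5.34 times in GIF-DTR and 3.54, 5.25 and 4.31 times in GIF/ATP4B-DTR. All 9 line samples lay above both controls. This held also over endothelial and pericyte markers, but over smooth muscle markers the ranges overlapped. Over fibroblast markers, the basement membrane class ranged from 1.97 to 2.97 in the lines and was 3.17 and 2.19 in the controls. The other collagens gave 1.30 to 2.05 against 1.38 and 1.76, and both classes overlapped. Among single fibrillar genes, only Col3a1 separated, with 0.505 and 1.11 in the controls and 1.57 to 2.41 in the lines. The ratio of every other fibrillar gene, Col1a1 included, overlapped. These ratios were formed after the levels had been seen and carry no test.

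**Figure D5:**
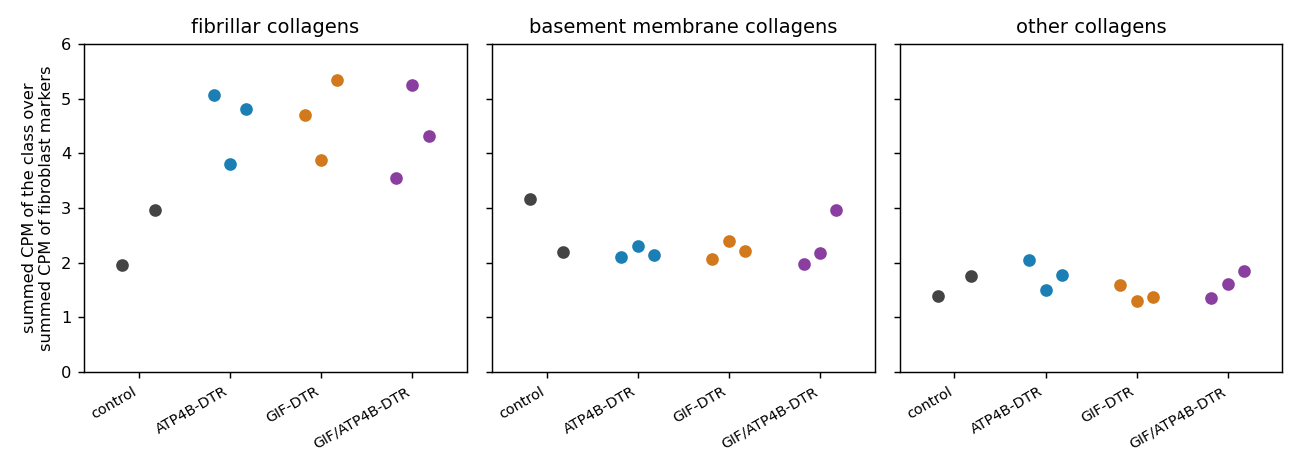
Summed CPM of each collagen class divided by the summed CPM of 12 fibroblast markers, per sample and genotype. For fibrillar collagens the controls lie at 1.95 and 2.96 and the lines between 3.54 and 5.34, for basement membrane collagens control 1 lies above the lines at 3.17 and control 2 among them at 2.19, and for the remaining collagens both controls lie among the lines.

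With the mean fibroblast marker level as a covariate in the edgeR fit, also chosen after the levels had been seen, Col1a1, Col1a2, Col3a1, Col5a2 and Col18a1 were called higher in ATP4B-DTR against control, and Col4a3 and Col4a4 lower. Col3a1 then had a log2 fold change of 1.64 ± 0.35 (adjusted p = 0.00995), where it had 0.03 ± 0.99 without the covariate. In GIF/ATP4B-DTR against control the same 5 genes and Col5a1 were called higher. In GIF-DTR against control, Col3a1 was called higher (1.14 ± 0.32, adjusted p = 0.0346) and Col4a4 and Col4a6 lower. Of all genes, this fit called 22.9% for ATP4B-DTR against control, 18.8% for GIF-DTR and 33.3% for the double line. The collagens called were 7, 3 and 8 of 34, each a smaller share than that of all genes. Shares by direction were not computed for this fit.

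The related genes are read against the shares of all genes called, which were 12.2% higher and 9.39% lower for ATP4B-DTR against control, 9.97% and 6.82% for GIF-DTR and 18.2% and 15.4% for the double line. A single gene called of 8 or of 13, or 2 of 13, is near these shares. In the lines named for ATP4B, 3 and 5 of 20 folding enzymes and 3 and 4 of 15 basement membrane genes fell. That is only a few genes above these shares, and none of these counts is a result about its list.

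The enzymes that fold and modify collagen chains include genes with a lower level in the lines named for ATP4B. Of 20 tested, 3 fell and 0 rose in ATP4B-DTR against control, 0 passed in GIF-DTR, and 5 fell in GIF/ATP4B-DTR. Plod1, a lysyl hydroxylase, was at 15.4 and 22.3 CPM in the controls, at 6.05, 6.54 and 7.70 CPM in ATP4B-DTR, at 14.1, 8.89 and 9.64 CPM in GIF-DTR and at 4.72, 5.77 and 6.87 CPM in GIF/ATP4B-DTR. Every line sample lay below both controls, and on the log2 scale Plod1 fell by 1.48 ± 0.25 in ATP4B-DTR and fell by 1.70 ± 0.25 in GIF/ATP4B-DTR (edgeR, adjusted p = 0.00257 and 0.000561). The prolyl hydroxylase subunits P4ha1 and P4ha2 fell by 1.67 and 1.58 in ATP4B-DTR (adjusted p = 0.0114 and 0.0355) and by 1.47 and 2.13 in GIF/ATP4B-DTR (adjusted p = 0.0128 and 0.0066). The Plod1 calls held in all 22 alternatives, those of P4ha1 were lost without control 2 (adjusted p = 0.0755 and 0.0831), and that of P4ha2 in ATP4B-DTR was lost under 10 of 22, each control left out among them. In GIF/ATP4B-DTR the call of P4ha2 was lost with only the 2 genotypes compared (adjusted p = 0.0561), and that of Plod2 under 9 of 22 alternatives, with an adjusted p of 0.485 without control 2. Serpinh1, the chaperone specific to collagen, ranged from 4.88 to 73.3 CPM and did not pass. The parietal marker sums given above were also highest in the controls and lowest in GIF/ATP4B-DTR. Their part in the falls of these enzymes was not tested.

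Of 13 tested genes for trimming propeptides and crosslinking fibrils, Lox fell in ATP4B-DTR and, with Adamts3, in GIF/ATP4B-DTR, and none passed in GIF-DTR. Lox, the lysyl oxidase that starts crosslinking, was at 7.41 and 10.6 CPM in the controls, at 3.12, 0.526 and 1.74 CPM in ATP4B-DTR, at 5.34, 2.20 and 3.61 CPM in GIF-DTR, and at 0.887, 3.12 and 2.10 CPM in GIF/ATP4B-DTR. All line samples lay below both controls, and the log2 fold changes were -2.32 ± 0.65 and -2.14 ± 0.65 in the lines named for ATP4B (edgeR, adjusted p = 0.0272 and 0.0255). The Lox calls were lost under 6 and 3 of 22 alternatives, both without control 2, the first also without control 1, ATP4B-DTR 2 or ATP4B-DTR 3 and the second without GIF/ATP4B-DTR 1 or 3, and that of Adamts3 under 10 of 19.

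Of 13 tested genes for degrading and taking up collagen, Mmp12, the macrophage metalloelastase, rose in every line and none fell. It was at 0.314 and 0.665 CPM in the controls, at 1.81, 3.55 and 2.03 CPM in ATP4B-DTR, at 6.05, 3.74 and 5.0 CPM in GIF-DTR and at 1.01, 5.56 and 2.81 CPM in GIF/ATP4B-DTR, with no overlap. Its log2 fold changes were 2.34 ± 0.70, 3.34 ± 0.72 and 2.68 ± 0.71 (edgeR, adjusted p = 0.0344, 0.0117 and 0.0132). All 3 calls were lost without control 1, those of the single lines also with the Y-linked covariate (adjusted p = 0.155 for ATP4B-DTR and 0.171 for GIF-DTR), and that of ATP4B-DTR under 6 of 21 alternatives in all, including without control 2, ATP4B-DTR 1, ATP4B-DTR 2 or GIF-DTR 3. The 9 macrophage and monocyte markers summed to 16.2 and 62.1 CPM in the controls and between 45.4 and 153 CPM in the lines, and their part in the Mmp12 result was not tested.

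Of 8 collagen receptors, Itga2, the integrin chain that binds collagen on epithelia and platelets, rose in every line. It was at 2.56 and 1.5 CPM in the controls and between 4.10 and 11.6 CPM in the 9 line samples, with no overlap, and the log2 fold changes were 1.70 ± 0.36, 1.92 ± 0.37 and 2.33 ± 0.37 (edgeR, adjusted p = 0.00779, 0.0068 and 0.000841). The Itga2 calls in the single lines were lost without control 2 (adjusted p = 0.0793 and 0.0623) and in no other alternative. Itga11, a collagen receptor of fibroblasts, fell in GIF/ATP4B-DTR, a call lost under 11 of 20 alternatives.

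Of 15 other basement membrane genes, 3 fell in ATP4B-DTR (Agrn, Lamb2 and Lamc1), 0 passed in GIF-DTR and 4 fell in GIF/ATP4B-DTR (Agrn, Lamb2, Lama2 and Lama4). The endothelial and pericyte markers had median log2 fold changes of -1.72 and -1.69 in ATP4B-DTR and -2.16 and -2.06 in GIF/ATP4B-DTR. Of them, 2 endothelial markers were called lower in GIF/ATP4B-DTR, and the part of these cells in the falls was not tested. Lamb2, a laminin chain, fell by 0.79 ± 0.25 and 1.45 ± 0.25 on the log2 scale in the lines named for ATP4B (edgeR, adjusted p = 0.042 and 0.00134). The first of these was lost under 11 of 22 alternatives and the second under 0. In GIF/ATP4B-DTR the calls of Lama2 and Lama4 were lost under 8 of 21 and 14 of 22 alternatives, and that of Agrn without control 1. In ATP4B-DTR the calls of Agrn and Lamc1 were lost under 4 and 5 of 22. Of 17 other genes of the fibrillar matrix, Fbln1 fell in GIF/ATP4B-DTR (-1.19 ± 0.30, adjusted p = 0.0127; 0.0632 without control 2) and none passed in the other lines. None of these pathway genes passed in a comparison between lines.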

How the data were processed

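RNA of gastric corpus mucosa was sequenced, per the labels' protocols, from TruSeq stranded mRNA libraries. The authors' deposited table holds expected counts per gene for 11 samples; the unit was inferred from their values, since 30.7% of entries above 0 are fractional. The build was mm10 per the submitters' processing notes, and the quantifier is not given in the sources used here. The design had been written for whole counts, so expected counts were rounded. Symbols matched 99.2% of 34866 identifiers. Samples were grouped by genotype label. Library totals were 20.7 to 27.9 M counts. Limits of 3 counts cover counting error only.

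Genes kept by filterByExpr (14889) were fitted with edgeR 4.0.16 in R 4.3.3 (TMM scaling, robust quasi-likelihood, 1 coefficient per genotype, all samples). Each comparison had its own Benjamini-Hochberg adjustment, with calls under 0.05. A rise or fall in the text is such a call. SE is the size of the log2 fold change divided by the square root of F. CPM are TMM-scaled and exon lengths come from GENCODE M21. The script was tested on simulated data.

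Named were collagens called in any of 6 comparisons, the 5 highest of each class, up to 3 called genes with at least 1 CPM per pathway list and comparison against control (in the text, the members with the smallest p), and the 5 genes most like Col1a1 and Col4a1; other collagens named for their levels were chosen after their values were seen. Members, classes and lists (183 genes in 20 lists) were chosen with earlier results of these data known. Alternatives were other scalings, DESeq2 1.42.0, other filters, no robust moderation, only the 2 genotypes compared, a Y-linked index (4 genes) or, added later, a fibroblast marker index as covariate, an offset for gene length, and each sample left out. A lone control was assumed to vary like the other groups.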

Additional observations from a re-analysis of the deposited data

Results flagged for a closer look

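Lines that were each set against the controls differed from one another in 3 collagens when the difference between the lines itself was tested with edgeR. Col4a4 differed between GIF-DTR and ATP4B-DTR by 2.46 on the log2 scale, a call lost under 6 of 21 alternatives (adjusted p up to 0.141). GIF/ATP4B-DTR differed from GIF-DTR by -4.33 in Col4a3, -3.85 in Col4a4 and -0.84 in Col27a1. These 3 calls were lost once the Y-linked level was a covariate (adjusted p = 0.182, 0.136 and 0.766), where the differences were -5.06, -4.18 and -0.64 with larger errors, and that of Col27a1 under 9 of 22 alternatives. No genotype had the 4 samples needed to look for a single sample far from the rest.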

How the results depend on the processing

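No paired analysis was possible because the replicate numbers of the lines are only accession order. Col4a3 and Col4a4 kept their calls in ATP4B-DTR and GIF/ATP4B-DTR against control in all 21 alternatives that gave a value. The number of collagens called in ATP4B-DTR against control was 2, and 0 with at least 10 counts in every sample (22 collagens tested, without Col4a3 and Col4a4; 27.1% of all genes called). In GIF-DTR against control it was 0, and 2 with library totals (both higher; the median of all genes moved to 0.35), 2 with DESeq2 (both lower), 3 with only the 2 genotypes compared (all lower) and 1 with the length offset (higher), where 28%, 22.6%, 15.9% and 14.8% of all genes were called. In GIF/ATP4B-DTR against control it was 4, and 6 with DESeq2 (1 higher, 5 lower), 2 without a filter, 1 with at least 10 counts, 2 with only the 2 genotypes and 2 with the Y-linked index, where 38.5%, 20.8%, 40.2%, 28.1% and 32% of all genes were called. In GIF-DTR against ATP4B-DTR it was 1, and 2 with DESeq2 and 0 with at least 10 counts, with only the 2 genotypes and with the Y-linked index (2.57%, 0.514%, 0.477% and 0.148% of all genes). In GIF/ATP4B-DTR against GIF-DTR it was 3, and 1 with at least 10 counts and 0 with the Y-linked index (3.39% and 0.101% of all genes). Leaving out each sample gave 2 to 5, 0 to 1, 2 to 11, 0 to 1, 0 to 0 and 2 to 3 collagens, where the first 3 ranges are against control (ATP4B-DTR, then GIF-DTR, then GIF/ATP4B-DTR), the next is GIF-DTR against ATP4B-DTR, and the last are GIF/ATP4B-DTR against each single line, ATP4B-DTR first. Over the same fits the share of all genes called was 8.51% to 22.4%, 5.63% to 17.7%, 18.6% to 34%, 0.114% to 0.942%, 0% to 0.289% and 1.08% to 2.54%. The highest values, 5 and 11, came without control 1. Col6a5 in GIF/ATP4B-DTR against control ranged from -4.00 to 0.76, the latter without control 2, and Lama2 from -3.85 without control 1 to 0.61 without control 2. With the fibroblast marker covariate the counts against control were 7, 3 and 8, where 22.9%, 18.8% and 33.3% of all genes were called. Some directions turned with it: in ATP4B-DTR Col18a1 became 1.00, Col1a1 1.04, Col1a2 0.98 and Col5a2 1.18, and in GIF/ATP4B-DTR Col18a1 became 1.35, Col1a1 1.25, Col1a2 0.86, Col3a1 1.55, Col5a1 0.96 and Col5a2 1.00 (log2). Apart from those that removed genes or samples, the cause of these changes was not tested. Low counts limit Col4a3 and Col4a4 in GIF/ATP4B-DTR, where the fold depends on 3 to 12 counts a sample.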
